A study of Mus musculus with 24 samples.

Results

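Collagen chain genes are described here, chosen by symbol alone: every gene named Col, a number, the letter a and a second number. Of 53946 genes in the deposited count table, 44 met that rule. The study measured RNA from ventral otocysts, the tissue that holds the cochlea, of C57BL/6J x 129X1/SvJ mouse embryos of day 14.5. TRAP libraries hold RNA bound to ribosomes that were pulled down through an eGFP-tagged L10a protein expressed in the Fgf20-Cre lineage, and pre-TRAP libraries hold RNA of the tissue without that pull-down. Embryos were Fgf20+/- (het) or Fgf20-/- (mut), with 8 TRAP and 4 pre-TRAP libraries of each genotype, spread evenly over 2 experiments that the labels call batches. Each library pooled 3 to 7 embryos of 1 genotype. The het controls lack 1 working copy of Fgf20 as well, the tag marks whatever cells the Fgf20-Cre lineage includes, and no wild-type libraries are among the samples. The labels tie no TRAP library to a pre-TRAP library, so the groups were compared unpaired.

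Collagens are proteins of the extracellular matrix in which alpha chains wind around each other into a triple helix. Types I, III and V build the fibrils of connective tissue, types II, IX and XI those of cartilage, and type IV the sheets of basement membranes under epithelia and around vessels. In the cochlea, chains of types II, IX and XI are also known components of the tectorial membrane, which the epithelium secretes, so a cartilage collagen need not come from cartilage cells alone.

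Total counts ran from 3.07e+07 to 5.34e+07 per library. Fgf20 itself, the targeted gene, was at 3.11 to 5.92 CPM (counts per 1000000 counts of the library, scaled with TMM factors over the 24 libraries) in TRAP het and 0.825 to 3.02 CPM in TRAP mut, and at 0.382 to 1.72 CPM in pre-TRAP het and 0.139 to 0.289 CPM in pre-TRAP mut. The groups of each kind of library did not overlap, in the direction of their labels. Markers of the otic epithelium were mostly higher in TRAP (11 of 13 called higher, 1 lower, Oc90), as were all 9 neuron markers. Markers of other cells were mostly lower: 9 of 11 tested for periotic mesenchyme (Dcn was called higher), 8 of 10 for otic capsule cartilage, and all 9 for endothelium. Of the Schwann cell and glia markers 5 of 7 were called lower and 2 higher. Of the skeletal muscle markers 5 of 6 were called lower and 1 higher. All 7 markers of macrophages, all 7 of erythroid cells and all 6 of melanocytes were called lower. Over all genes tested, 27.9% were called higher in TRAP and 31.2% lower. No marker of these lists was without counts in either kind of library.

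Of the 44 chains, 40 had enough counts for the comparison of TRAP with pre-TRAP. The other 4, Col6a4, Col6a5, Col10a1 and Col19a1, had at most 8 counts in any library and were not tested. Mean levels were below 1 CPM in both kinds of library for 14 chains, the 4 untested ones included.

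The first comparison set the level of each chain in TRAP beside that in pre-TRAP. No pull-down from tissue without the tag is among the samples. Erythroid markers summed to 324.3 to 1120 CPM in TRAP and 4935 to 11520 CPM in pre-TRAP. How much of the TRAP RNA came from untagged cells was not tested. No collagen chain was called higher in TRAP, 32 of 40 were called lower and 8 were not called (edgeR quasi-likelihood test, Benjamini-Hochberg adjusted p under 0.05). Over all 24242 genes tested, 27.9% were called higher, 31.2% lower and 59.1% either way. The median log2 fold change of TRAP over pre-TRAP was -1.33 for the chains and -0.01 for all genes, and 36 of 40 chains (90% against 50.7% of all genes) had a negative value. Those 36 were negative in both experiments and in both genotypes taken alone. In bulk libraries such as these, fewer cells of a type and less RNA per cell cannot be told apart. Median log2 fold changes of the marker lists were -2.14 for mesenchyme, -2.30 for cartilage, -2.44 for endothelium, 1.34 for otic epithelium and 2.65 for neurons. Without TRAP libraries 3 to 6, described next, 36 chains were called lower with a median of -2.15. Of 24042 genes tested in that fit 7849 were called lower and 6869 higher, and the median of all genes was again -0.01.

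**Figure D1:**
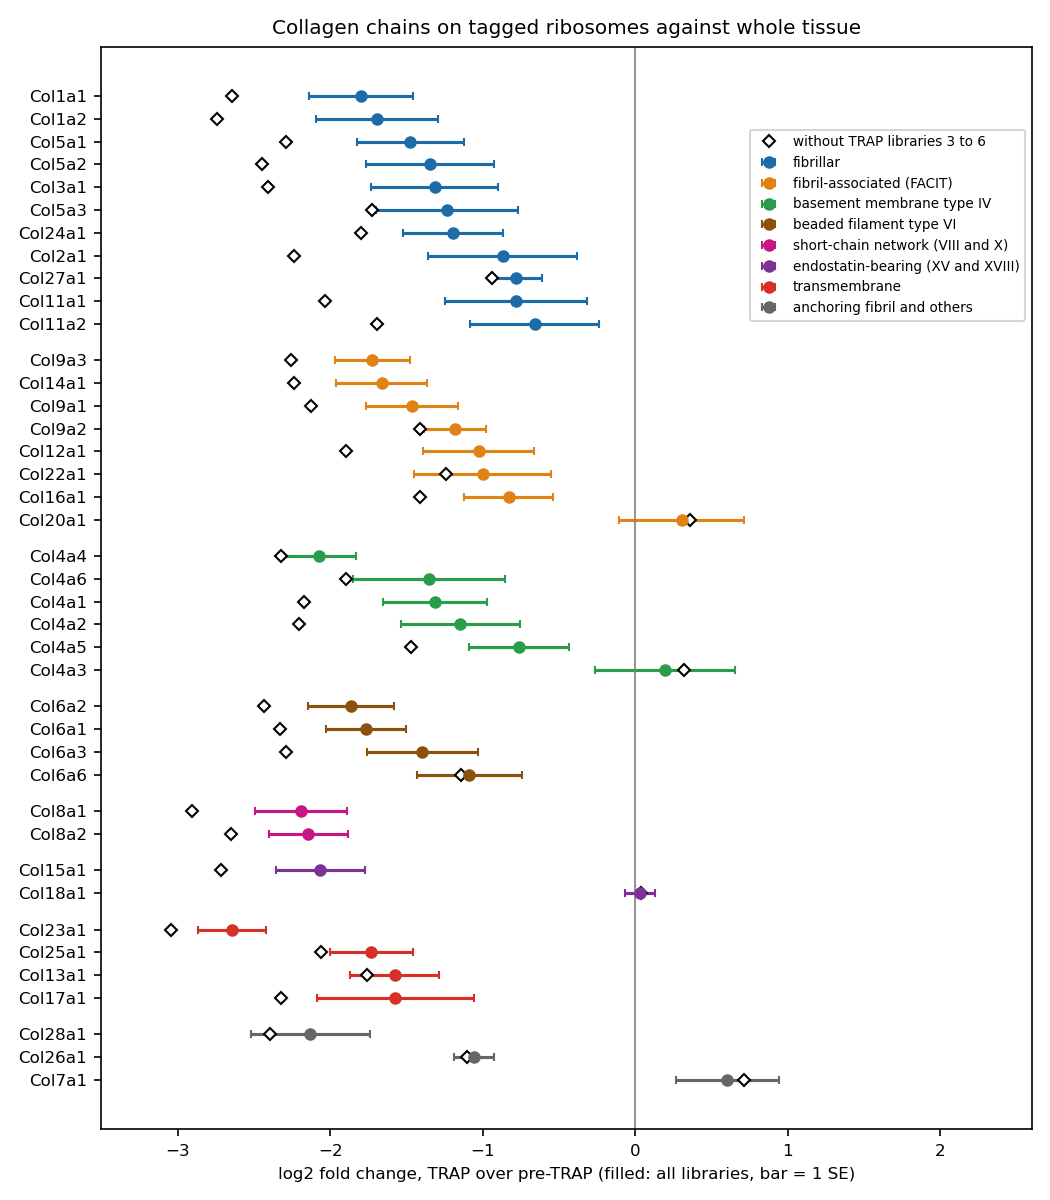
Log2 fold change of TRAP over pre-TRAP for the 40 tested collagen chains, grouped by family (x axis: log2 fold change; filled points: all 24 libraries, bars: 1 SE; open diamonds: fit without TRAP libraries 3 to 6). Of the 40 filled points 36 lie left of 0, and Col18a1 sits at 0.03.

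TRAP libraries 3, 4, 5 and 6 stood apart from the other 12 in their collagen content, and log2 fold changes are therefore also given without them. All collagen chains together took 0.424%, 0.221%, 0.542% and 0.726% of the counts of libraries 3, 4, 5 and 6, against 0.0569% to 0.12% in the other 12 TRAP libraries and 0.257% to 0.575% in the 8 pre-TRAP libraries. Libraries 3 and 5 are het and 4 and 6 are mut, and libraries 3 and 4 belong to experiment 2 and 5 and 6 to experiment 1, so each genotype and experiment holds a pair of them. For 22 of the 40 tested chains these 4 were the 4 highest of the 16 TRAP libraries. The same count was not made over all genes. As the 4 hold the highest collagen shares of TRAP, high ranks of chains in them are partly built in. Cartilage markers moved with the collagens. Summed, they reached 493.9 to 1459 CPM in libraries 3 to 6, 210.2 to 458.8 CPM in the other 12 and 1376 to 2425 CPM in pre-TRAP. Mesenchyme markers summed to 304.1 to 578.3 CPM in libraries 3 to 6 and 195.8 to 389.1 CPM in the other 12, endothelial markers to 11.8 to 18.5 CPM and 4.88 to 12.1 CPM, and otic epithelium markers to 762.2 to 957.1 CPM and 609.8 to 1113 CPM. The part of these markers in the collagen values was not tested. The mesenchyme sums of libraries 3, 4 and 5 lie within the range of the other 12, and only library 6 exceeds it. The endothelial sum of library 5 also lies within the range of the other 12. The 4 libraries were taken from earlier results of these data. As they hold the 4 highest collagen shares of TRAP, leaving them out lowers TRAP collagen by construction.

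**Figure D2:**
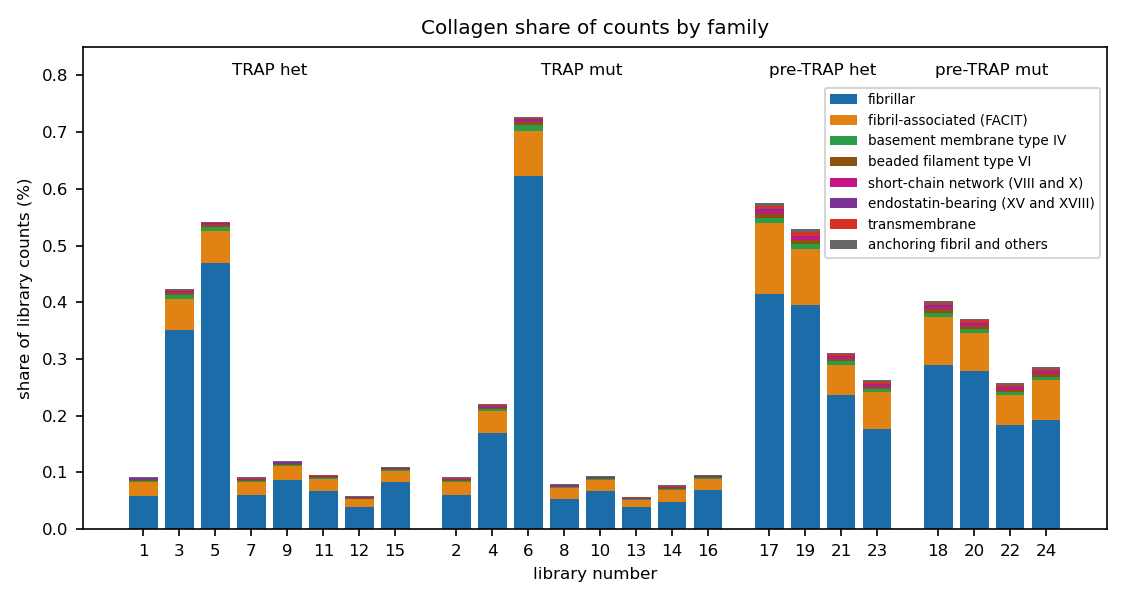
Share of each library's counts taken by collagen chains, in percent (y axis), by library number (x axis) within the 4 groups, stacked by collagen family. Libraries 3, 4, 5 and 6 reach 0.424%, 0.221%, 0.542% and 0.726%, while no other TRAP library exceeds 0.12%.

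On average the chains took 0.186% ± 0.199 (SD, n = 16) of TRAP counts and 0.374% ± 0.121 (SD, n = 8) of pre-TRAP counts, a ratio of 0.497 that became 0.237 without libraries 3 to 6. The family with the lowest ratio was the transmembrane collagens at 0.184 (0.143 without libraries 3 to 6), followed by the short-chain network collagens at 0.23 (0.155). With all libraries, fibrillar collagens had a ratio of 0.541, type IV 0.441, FACIT collagens (fibril-associated collagens with interrupted triple helices) 0.378 and type VI 0.333. Without libraries 3 to 6 these 4 ratios were 0.225, 0.235, 0.259 and 0.211, so that fibrillar collagens were no longer the highest of them. The endostatin-bearing types XV and XVIII together had 0.851 and 0.833. These ratios sum counts and so mostly follow the chain with most counts in a family. Over all libraries Col23a1 had 15753 counts and Col25a1, the next transmembrane chain, 2677. Col18a1 had 17930 and Col15a1 2779, and Col2a1 had 999636 and Col11a1, the next fibrillar chain, 258866.

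Fibrils of connective tissue came first among the roles examined. Col1a1 and Col1a2 encode the chains of type I collagen, the main protein of mesenchymal matrix. Col1a1 ranged from 16.8 to 156.9 CPM (median 32.9) in TRAP and from 138.3 to 255.6 CPM (median 186.4) in pre-TRAP. Only library 6 rose above the lowest pre-TRAP library, and 15 of 16 TRAP libraries lay below all 8 of pre-TRAP. The log2 fold change was -1.80 ± 0.341 (SE, edgeR adjusted p = 5.69e-05). Col1a2 ranged from 25.4 to 305.1 CPM (median 43.9) in TRAP and from 173.1 to 333.2 CPM (median 251.3) in pre-TRAP, with a log2 fold change of -1.70 ± 0.4 (edgeR adjusted p = 0.000685). Col3a1, which forms fibrils with type I, ranged from 16.7 to 215.4 CPM (median 28.1) against 106.9 to 188.5 CPM (median 137.1), so that library 6 exceeded every pre-TRAP library while 13 TRAP libraries lay below all of them. Its log2 fold change was -1.32 ± 0.415 (edgeR adjusted p = 0.00805).

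Without libraries 3 to 6 the log2 fold changes became -2.65 for Col1a1, -2.74 for Col1a2 and -2.41 for Col3a1. Type V chains, which set fibril width, fell too, with log2 fold changes of -1.47 for Col5a1, -1.35 for Col5a2 and -1.23 for Col5a3. Col24a1 (-1.20) and Col27a1 (-0.78), minor fibrillar chains, were also called lower. These 5 had -2.29, -2.44, -1.72, -1.80 and -0.94 without libraries 3 to 6. With all libraries 8 of 11 fibrillar chains were called lower, and the 3 left are Col2a1, Col11a1 and Col11a2.

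Cartilage collagens gave the widest spread. Col2a1, the sole chain of type II collagen, ranged from 240 to 4049 CPM (median 349.8) in TRAP and from 835.5 to 2397 CPM (median 1565) in pre-TRAP. Libraries 5 (4049 CPM) and 6 (4042 CPM) stood above every pre-TRAP library, library 3 was at 1912 CPM and library 4 at 913.4 CPM, and the other 12 lay between 240 and 536.9 CPM, below all of pre-TRAP. With all libraries the log2 fold change of -0.87 ± 0.489 was not called (edgeR adjusted p = 0.129). Without libraries 3 to 6 it was -2.24 ± 0.158. As those libraries are the highest of TRAP for this chain, leaving them out lowers its value by construction. The p-value of that fit is therefore no test of the chain.

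Col11a1 and Col11a2 encode the minor chains inside type II fibrils. Col11a1 ranged from 66.2 to 1124 CPM (median 105.1) in TRAP and from 254.5 to 548.2 CPM (median 391.3) in pre-TRAP, with a log2 fold change of -0.78 ± 0.466 (edgeR adjusted p = 0.153). Col11a2 ranged from 12.1 to 186.1 CPM (median 28.6) against 52.4 to 144.9 CPM (median 68.4), with -0.66 ± 0.424 (edgeR adjusted p = 0.186). Both repeat the pattern of Col2a1, with libraries 5 and 6 above every pre-TRAP library. Without libraries 3 to 6 both were called lower at -2.04 and -1.69, calls with the same limit as for Col2a1.

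Type IX chains coat type II fibrils and were called lower with all libraries included. Col9a1 ranged from 53.8 to 373 CPM (median 78.1) in TRAP and from 240.2 to 476.6 CPM (median 294.2) in pre-TRAP, and its log2 fold change was -1.46 ± 0.302 (edgeR adjusted p = 0.00016). Col9a2 ranged from 32.7 to 106.6 CPM (median 47.1) against 78.6 to 229.1 CPM (median 100.4), with -1.18 ± 0.202 (edgeR adjusted p = 1.47e-05). For Col9a3 the 16 TRAP libraries (34.3 to 167.4 CPM, median 52.5) all lay below the 8 pre-TRAP libraries (197.3 to 325.4 CPM, median 222), with a log2 fold change of -1.72 ± 0.247 (edgeR adjusted p = 1.11e-06). Unlike Col2a1, none of the type IX chains exceeded the highest pre-TRAP library in any TRAP library. Their log2 fold changes without libraries 3 to 6 were -2.13 for Col9a1, -1.41 for Col9a2 and -2.25 for Col9a3. The gene span of Col9a3 overlaps that of Tcfl5 and the strand setting of the counting is not given, so part of its count may be read from that neighbour.

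Among the other FACIT collagens, which sit on the surface of larger fibrils, Col14a1 (-1.66), Col12a1 (-1.03) and Col16a1 (-0.83) were called lower, with -2.23, -1.90 and -1.41 without libraries 3 to 6. Col22a1 was not called with all libraries (edgeR adjusted p = 0.0582). It was called without libraries 3 to 6 (-1.24), a fit that leaves out the TRAP libraries with the highest collagen shares. Col20a1 was not called in either fit. Col19a1 had 0 to 4 counts per TRAP library.

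**Figure D3:**
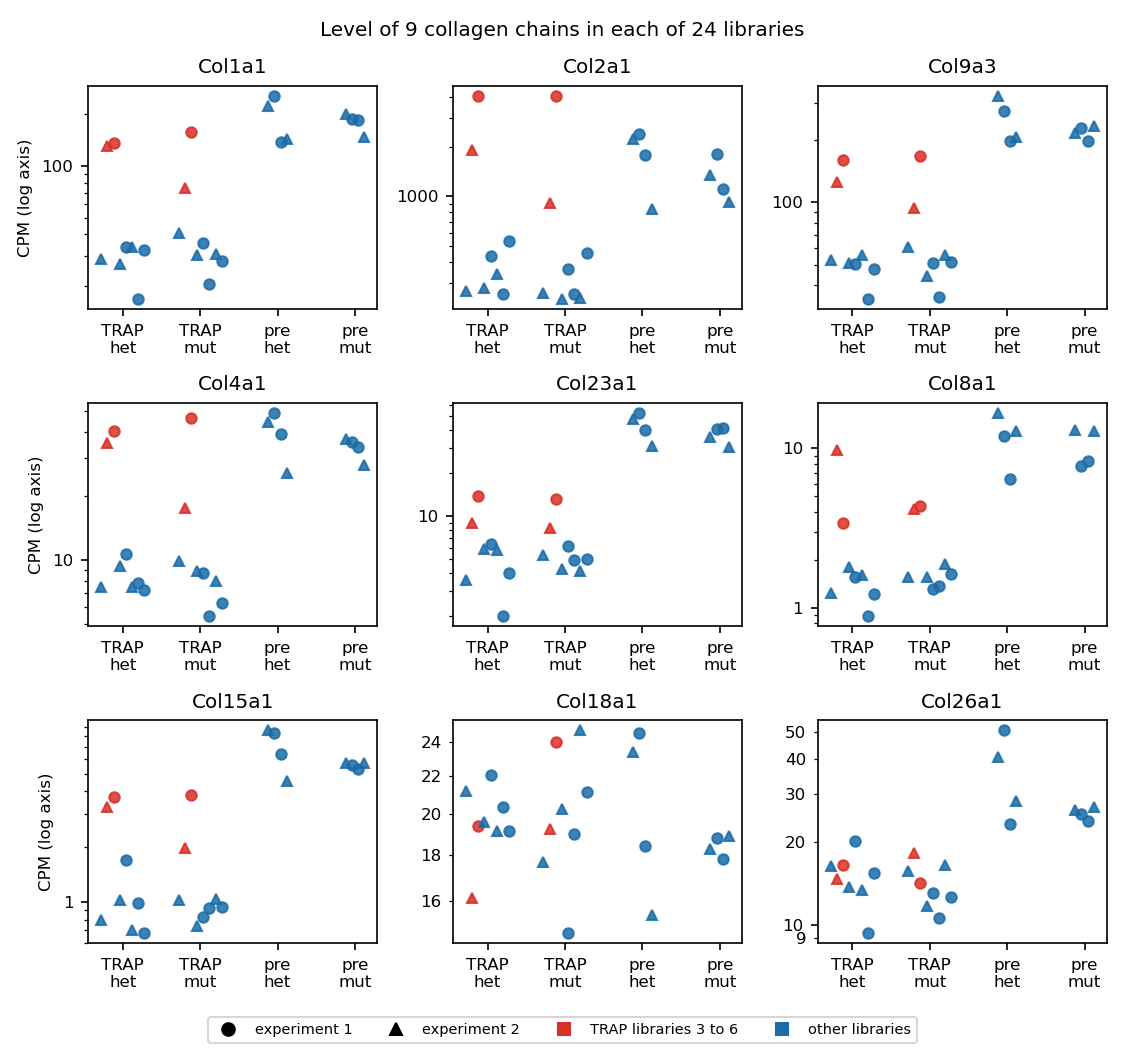
Level of 9 collagen chains in each of the 24 libraries (y axis: CPM on a log axis; x axis: group; circles: experiment 1; triangles: experiment 2; red: TRAP libraries 3 to 6). For Col2a1 red points reach 4049 CPM, above the highest pre-TRAP library at 2397 CPM, while for Col18a1 all groups share the range of 14.8 to 24.7 CPM.

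Basement membrane collagens were called lower in TRAP in 5 of 6 chains. Col4a1 and Col4a2 together make the type IV network found in nearly every basement membrane. Col4a1 ranged from 5.46 to 46.5 CPM (median 8.77) in TRAP and from 25.6 to 49.0 CPM (median 36.4) in pre-TRAP, with a log2 fold change of -1.31 ± 0.342 (edgeR adjusted p = 0.00177). Col4a2 ranged from 4.49 to 43.7 CPM (median 6.03) against 16.9 to 35.8 CPM (median 27.8), with -1.15 ± 0.391 (edgeR adjusted p = 0.0137). In both, libraries 3, 5 and 6 reached the pre-TRAP range and 13 of 16 TRAP libraries stayed below it, and without libraries 3 to 6 the values were -2.17 and -2.20. The RefSeq start sites of this pair lie 21 bases apart on opposite strands of chromosome 8, and their 300-base promoter windows share 78 bases (GRCm38.p6). Their gene spans overlap at the 5′ ends, so without strand some reads could be assigned to either.

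Col4a3, Col4a4 and Col4a5 form the other type IV network, whose loss causes hearing and kidney disease, and Col4a6 pairs with Col4a5. Col4a5 ranged from 0.66 to 4.51 CPM (median 0.906) in TRAP and from 1.61 to 3.33 CPM (median 2.34) in pre-TRAP. Its log2 fold change of -0.76 ± 0.326 was just past the threshold (edgeR adjusted p = 0.0462) and was called in 10 of 34 alternative settings. Without libraries 3 to 6 it was -1.47. Col4a4 was low in both, at 0.0428 to 0.404 CPM (median 0.199) in TRAP and 0.682 to 1.47 CPM (median 0.888) in pre-TRAP, and the groups did not overlap (log2 fold change -2.07 ± 0.246, edgeR adjusted p = 5.21e-08). Col4a6 ranged from 0 to 0.684 CPM (median 0.109) against 0.282 to 0.765 CPM (median 0.385), with -1.35 ± 0.497 (edgeR adjusted p = 0.0214). For Col4a4 and Col4a6 the values without libraries 3 to 6 were -2.32 and -1.89. Col4a3 had at most 13 counts in any TRAP library and at most 9 in any pre-TRAP library, and its log2 fold change of 0.19 ± 0.46 was not called (edgeR adjusted p = 0.737). The spans of Col4a3 and Col4a4 overlap, so both values are uncertain without strand.

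Type VI collagen forms beaded filaments near cell surfaces of connective tissue. Col6a1 ranged from 2.97 to 18.9 CPM (median 5.09) in TRAP and from 17.6 to 28.5 CPM (median 22.8) in pre-TRAP, and its log2 fold change was -1.76 ± 0.264 (edgeR adjusted p = 2.22e-06). Col6a2 ranged from 1.46 to 11.0 CPM (median 3.12) against 9.70 to 22.7 CPM (median 13.4), with -1.86 ± 0.281 (edgeR adjusted p = 2.55e-06). Col6a3 fell in the same comparison (-1.40) and so did Col6a6 (-1.09). The 4 chains had -2.33, -2.43, -2.29 and -1.15 without libraries 3 to 6.

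The 3 largest falls among chains with a mean of at least 1 CPM were in a transmembrane and a short-chain family when all libraries were used. Col23a1, a transmembrane collagen, ranged from 2.01 to 13.7 CPM (median 5.56) in TRAP and from 30.1 to 52.4 CPM (median 40.2) in pre-TRAP. All 16 TRAP libraries lay below all 8 of pre-TRAP, libraries 3 to 6 included, and the log2 fold change was -2.65 ± 0.223 (edgeR adjusted p = 9.58e-11). The other transmembrane chains, Col25a1 (-1.73), Col13a1 (-1.58) and Col17a1 (-1.57), were called lower as well. With libraries 3 to 6 left out, the values were -3.04 for Col23a1, -2.06 for Col25a1, -1.76 for Col13a1 and -2.33 for Col17a1. Col17a1, a hemidesmosome component of the skin, was sparse, with at most 14 counts in any TRAP library.

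Col8a1 and Col8a2, the chains of the hexagonal network of vessels and corneal endothelium, moved alike. Col8a1 ranged from 0.891 to 9.82 CPM (median 1.60) in TRAP and from 6.42 to 16.6 CPM (median 12.4) in pre-TRAP, with only library 3 inside the pre-TRAP range, and its log2 fold change was -2.19 ± 0.302 (edgeR adjusted p = 6.18e-07). Col8a2 ranged from 2.35 to 13.2 CPM (median 4.13) against 16.4 to 30.9 CPM (median 20.9), without overlap, with -2.14 ± 0.258 (edgeR adjusted p = 6.82e-08). Col28a1 fell as well (0 to 0.701 CPM, median 0.297, against 0.729 to 1.93 CPM, median 0.993; log2 fold change -2.13 ± 0.39, edgeR adjusted p = 3.6e-05). Col26a1, listed with it in a mixed group of remaining chains, fell by less (-1.06 ± 0.129, edgeR adjusted p = 8.15e-08), from 23.3 to 51.0 CPM in pre-TRAP to 9.38 to 20.3 CPM in TRAP. Without libraries 3 to 6, Col8a1 was at -2.90, Col8a2 at -2.65, Col28a1 at -2.40 and Col26a1 at -1.10, and the fall of Col1a2 (-2.74) then exceeded that of Col8a2.

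In 7 chains every TRAP library lay below every pre-TRAP library: Col4a4, Col8a2, Col9a3, Col15a1, Col23a1, Col26a1 and Col28a1. Over all genes tested that held for 8.32%. Col26a1, named here after its values were seen, showed no excess in libraries 3 to 6 (14.8, 18.2, 16.5 and 14.2 CPM, within the range of the other 12).

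The related chains Col15a1 and Col18a1, whose tails release endostatin-like fragments, differed from each other. Col15a1, found in the basement membranes of muscle and vessels, ranged from 0.679 to 3.83 CPM (median 1.01) in TRAP and from 4.57 to 8.63 CPM (median 5.75) in pre-TRAP, without overlap, and its log2 fold change was -2.06 ± 0.291 (edgeR adjusted p = 8.7e-07), and -2.72 without libraries 3 to 6. Col18a1, a basement membrane collagen that carries heparan sulfate, ranged from 14.8 to 24.7 CPM (median 19.5) in TRAP and from 15.5 to 24.5 CPM (median 18.6) in pre-TRAP. Its groups overlapped throughout, libraries 3 to 6 stood at 16.1, 19.3, 19.4 and 24.0 CPM, and the log2 fold change was 0.03 ± 0.0985 (edgeR adjusted p = 0.804). Col18a1 was singled out after its values were seen. Over 34 alternative settings its log2 fold change stayed between -0.06 and 0.14 and was never called.

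Col7a1, the anchoring fibril collagen under stratified epithelia, was the chain with the highest log2 fold change, 0.60 ± 0.339, and was not called (edgeR adjusted p = 0.13). It ranged from 0.148 to 1.73 CPM in TRAP and from 0.207 to 0.712 CPM in pre-TRAP. Together with Col4a3, Col18a1 and Col20a1 it makes up the 4 tested chains that were called neither with nor without libraries 3 to 6. The other 36 were all called lower without those libraries, the 32 called with them among these. The calls gained there follow the removal of the TRAP libraries with the highest collagen shares.

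The bases upstream of the start site are shown for the pairs of related chains that came out apart (Col15a1 and Col18a1) and together (Col8a1 and Col8a2). They are the 250 bases before the start site from RefSeq (GRCm38.p6), 5′ to 3′ on the gene's strand, with matches to 5 motifs in capitals. Col18a1 has 2 start sites in that table, and their 250-base windows are chr10:77113706-77113955 on the minus strand and chr10:77166531-77166780 on the minus strand. The window of Col15a1 is chr4:47207762-47208011 on the plus strand, that of Col8a1 chr16:57754738-57754987 on the minus strand and that of Col8a2 chr4:126286544-126286793 on the plus strand.
Col18a1, inner start: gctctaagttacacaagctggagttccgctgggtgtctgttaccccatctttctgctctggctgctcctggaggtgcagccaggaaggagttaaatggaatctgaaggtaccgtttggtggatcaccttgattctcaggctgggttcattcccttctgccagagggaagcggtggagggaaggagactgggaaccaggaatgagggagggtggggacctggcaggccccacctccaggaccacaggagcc
Col18a1, outer start: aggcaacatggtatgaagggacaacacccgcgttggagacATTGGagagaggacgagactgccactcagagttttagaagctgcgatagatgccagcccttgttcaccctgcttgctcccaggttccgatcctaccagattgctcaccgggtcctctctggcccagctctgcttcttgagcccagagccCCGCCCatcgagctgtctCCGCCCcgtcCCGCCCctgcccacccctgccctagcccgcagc
Col15a1: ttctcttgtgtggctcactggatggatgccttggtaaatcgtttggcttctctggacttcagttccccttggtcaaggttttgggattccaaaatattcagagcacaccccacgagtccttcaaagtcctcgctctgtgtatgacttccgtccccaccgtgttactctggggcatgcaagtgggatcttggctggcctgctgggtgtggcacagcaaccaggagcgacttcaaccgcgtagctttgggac
Col8a1: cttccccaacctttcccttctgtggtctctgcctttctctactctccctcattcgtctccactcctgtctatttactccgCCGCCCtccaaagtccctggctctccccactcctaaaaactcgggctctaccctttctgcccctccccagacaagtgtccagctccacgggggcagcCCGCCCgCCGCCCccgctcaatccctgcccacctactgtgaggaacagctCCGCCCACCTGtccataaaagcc
Col8a2: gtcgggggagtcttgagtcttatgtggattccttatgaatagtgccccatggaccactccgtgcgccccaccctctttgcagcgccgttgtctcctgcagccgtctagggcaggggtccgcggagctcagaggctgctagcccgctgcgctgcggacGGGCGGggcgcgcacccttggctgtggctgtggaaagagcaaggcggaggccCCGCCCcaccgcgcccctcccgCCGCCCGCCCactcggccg

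The motifs, searched on both strands, were the TATA box (TATAAA), the CCAAT box (CCAAT), the GC box (GGGCGG), a SOX core (ACAAAG) and the E-box bound by Snail and Zeb repressors (CAGGTG). Both type VIII promoters hold 4 GC boxes, and that of Col8a1 also has an E-box that overlaps a GC box. The outer Col18a1 window has 3 GC boxes and a CCAAT box, while the inner one and that of Col15a1 hold none of the 5 motifs. Among 38 windows of 35 collagen genes, 57.9% held a GC box, against 32.7% of all 32851 windows of that length. The shares were 34.2% and 33.8% for the CCAAT box, 13.2% and 12.4% for the TATA box, 10.5% and 16.5% for the SOX core and 10.5% and 17.2% for the E-box. A match is a description of these letters and shows no binding.

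Paired chains were also compared as ratios within each library. Of 14 pairs listed, 11 had enough counts. In 10 of these 11 both chains join in 1 helix, and none of the 10 ratios differed between TRAP and pre-TRAP (two-sided exact permutation test over the 24 libraries, lowest adjusted p = 0.167 by Benjamini-Hochberg over the 10; 2 had an unadjusted p under 0.05). The remaining pair, Col4a1 and Col4a5, belongs to different type IV helices and so compares the main network with the other one. It differed, with Benjamini-Hochberg adjustment over all 11 pairs as planned. The mean log2 ratio of Col4a1 to Col4a5 was 3.25 ± 0.323 (SD, n = 16) in TRAP and 3.90 ± 0.301 (SD, n = 8) in pre-TRAP, a difference of -0.65 (exact permutation p = 0.00014, adjusted 0.00154). The groups overlapped, TRAP running from 2.77 to 3.97 and pre-TRAP from 3.56 to 4.28. In experiment 2 alone and in mut libraries alone none of the 11 pairs passed.

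For type I the mean log2 ratio of Col1a1 to Col1a2 was -0.41 ± 0.288 in TRAP and -0.44 ± 0.165 in pre-TRAP (exact permutation adjusted p = 0.834 over the 10 pairs, as for the others here). For Col4a1 and Col4a2 it was 0.43 and 0.49 (exact permutation adjusted p = 0.76). The ratio of Col9a1 to Col9a2 was 0.93 ± 0.555 in TRAP and 1.42 ± 0.342 in pre-TRAP and missed the threshold after adjustment (exact permutation p = 0.0333, adjusted 0.167). Without libraries 3 to 6 its difference of -0.75 passed (exact permutation adjusted p = 0.00238). Col9a1 to Col9a3 went the other way, by 0.21 (exact permutation p = 0.0228, adjusted 0.167), and passed in experiment 1 alone (exact permutation adjusted p = 0.0202).

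**Figure D4:**
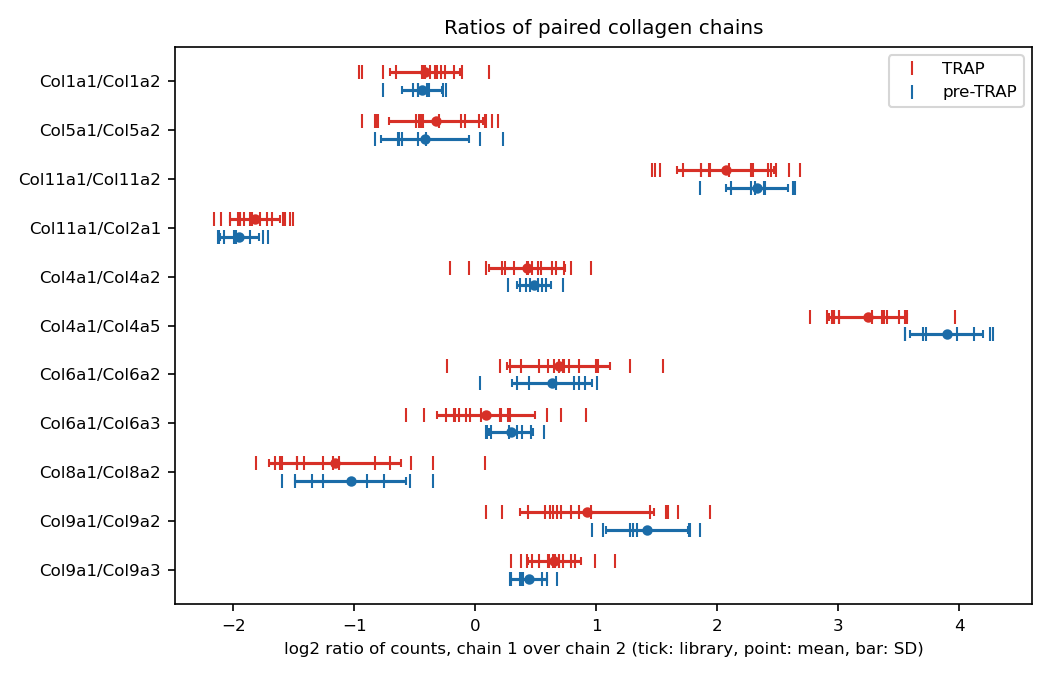
Log2 ratio of counts of 2 paired chains (x axis), for the 11 tested pairs (y axis), of which all but Col4a1 with Col4a5 join in 1 helix, in TRAP (red) and pre-TRAP (blue); ticks are libraries, points means and bars SD. The Col4a1 to Col4a5 means are 3.25 in TRAP and 3.90 in pre-TRAP, the 1 pair past the threshold.

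Genes that make, cut, bind and degrade collagen were counted from 4 lists in the fit of TRAP against pre-TRAP. In that fit 31.2% of all genes were called lower and 27.9% higher. Of 20 genes for chain modification and folding 17 were called lower and none higher. Serpinh1, the chaperone HSP47 that escorts procollagen, was at 76.7 to 390.8 CPM (median 119.9) in TRAP and 676.2 to 992.1 CPM (median 822.7) in pre-TRAP, without overlap, and had the largest fall of the list, -2.47 ± 0.207 (edgeR adjusted p = 8.81e-11). The hydroxylases P3h1 (-1.92) and Plod1 (-1.95) fell too. These 3 had -2.88, -2.26 and -2.29 without libraries 3 to 6, when 18 of the list were called lower. The 3 members not called were Colgalt2, Mia3 and Tmem38b.

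Among 13 genes for propeptide cleavage and crosslinking, 10 were called lower and 1 higher (11 and 1 without libraries 3 to 6). The largest fall was in Tll2, a tolloid-like protease (-3.23 ± 0.519, edgeR adjusted p = 6.16e-06), whose mean level was only 0.0315 CPM in TRAP and 0.303 CPM in pre-TRAP. Pcolce, which speeds removal of the C-terminal propeptide, was at 2.71 to 17.4 CPM (median 5.69) in TRAP and 33.1 to 51.2 CPM (median 41.3) in pre-TRAP, again without overlap (log2 fold change -2.52 ± 0.234, edgeR adjusted p = 6.54e-10), the largest fall of the list above a mean of 2 CPM. Its paralog Pcolce2 went the other way, with 13.1 to 26.0 CPM (median 18.6) against 10.7 to 20.0 CPM (median 15.2), ranges that overlap (log2 fold change 0.36 ± 0.126, edgeR adjusted p = 0.0156). The crosslinking enzyme Lox fell by 2.36 on the log2 scale. Pcolce had -2.98, Pcolce2 0.40 and Lox -2.64 without libraries 3 to 6.

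Collagen receptors split by a pair of kinases. Ddr1, the discoidin domain receptor of epithelia, was higher in TRAP at 10.9 to 24.0 CPM (median 17.1) against 4.37 to 13.2 CPM (median 7.01), with a log2 fold change of 1.03 ± 0.175 (edgeR adjusted p = 1.46e-05). Ddr2, its counterpart in mesenchymal cells, was lower at 2.70 to 17.4 CPM (median 6.03) against 28.4 to 46.2 CPM (median 36.2), with -2.36 ± 0.254 (edgeR adjusted p = 9.06e-09). Ddr1 was the 1 receptor of 7 tested that was called higher, and the other 6, among them the integrin chain Itga2 (-1.95), were called lower. All 9 tested genes of collagen breakdown were called lower, with the largest fall in the protease inhibitor Timp3 (-3.15 ± 0.297, edgeR adjusted p = 7.94e-10), at 1.78 to 13.8 CPM (median 3.86) in TRAP and 26.4 to 70.9 CPM (median 52.1) in pre-TRAP. Without libraries 3 to 6 the counts called in both lists were the same, with values of 1.08 for Ddr1, -2.84 for Ddr2 and -3.77 for Timp3.

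The genotype comparison asked whether loss of the second Fgf20 copy moved any chain. No chain was called among 36 tested in TRAP or among 39 tested in pre-TRAP, by edgeR or by DESeq2, where edgeR called 0.0742% of all genes in TRAP (0.0185% higher, 0.0556% lower) and 0.00455% in pre-TRAP, all lower. At an unadjusted p under 0.05 edgeR had 0 chains in TRAP and 3 in pre-TRAP. Most log2 fold changes of mut over het were negative, 32 of 36 in TRAP (88.9% against 53.7% of all genes) with a median of -0.11, and 34 of 39 in pre-TRAP (87.2% against 54% of all genes) with a median of -0.22. In TRAP the sign depended on the experiment. Most chains were positive in experiment 1 alone and negative in experiment 2 alone, such as Col1a1 (0.18 and -0.33) and Col3a1 (0.15 and -0.62). Col5a1, Col9a2 and Col15a1 were negative in both, and Col7a1, Col18a1 and Col26a1 went the opposite way. In pre-TRAP most chains were negative in each experiment. The chains share cells and libraries and so do not count as independent cases. Marker lists varied with genotype too, with few calls. Of the otic epithelium markers 1 was called lower in TRAP and 1 in pre-TRAP, and no cartilage, mesenchyme, endothelial or neuron marker was called. In TRAP the summed otic epithelium markers ran from 931.7 to 1113 CPM in het and 609.8 to 775.7 CPM in mut, without overlap, and 11 of 13 were negative. In the same libraries 4 of 10 cartilage markers were negative (median 0.02) and 6 of 11 mesenchyme markers (median -0.10). The same was true of 2 of 9 endothelial markers (median 0.07) and 0 of 9 neuron markers (median 0.07). In pre-TRAP, 8 of 10 cartilage markers were negative with a median of -0.19, as were 8 of 11 mesenchyme markers with a median of -0.17 and 11 of 13 otic epithelium markers with a median of -0.32. Endothelial markers were negative in 5 of 9 (median -0.02) and neuron markers in 4 of 9 (median 0.004). The part of these markers in the collagen values was not tested.

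The 3 chains in pre-TRAP were Col26a1, Col9a2 and Col27a1, named after their values were seen. Col26a1 was at 40.8, 51.0, 23.3 and 28.2 CPM in the het libraries 17, 19, 21 and 23 and at 26.1, 25.3, 23.9 and 26.8 CPM in the mut libraries 18, 20, 22 and 24 (log2 fold change -0.49 ± 0.22, edgeR adjusted p = 0.837). Col9a2 was at 229.1, 213.5, 102.1 and 78.6 CPM against 94.7, 122.4, 98.7 and 83.5 CPM (-0.65 ± 0.293, edgeR adjusted p = 0.837). Col27a1 was at 163.8, 131.8, 76.0 and 69.2 CPM against 84.5, 72.3, 73.1 and 69.5 CPM (-0.56 ± 0.243, edgeR adjusted p = 0.837). In each case het libraries 17 and 19 were high and the other 2 het libraries lay in or next to the mut range. The same 2 had the highest collagen shares of pre-TRAP, 0.575% and 0.529%.

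In TRAP the same 3 chains had log2 fold changes of -0.11 (Col26a1), -0.23 (Col9a2) and -0.11 (Col27a1). Col2a1 was at 256.9 to 4049 CPM (median 387.4) in TRAP het and 240 to 4042 CPM (median 311.9) in TRAP mut, with a log2 fold change of -0.41 ± 0.64. It was -1.25 without library 6, and turned positive without library 3 (0.20) or library 5 (0.28). The difference between the genotype effects in TRAP and pre-TRAP, tested as an interaction, was called for none of the 40 chains by edgeR or DESeq2, with 0 at an unadjusted p under 0.05 and 0% of all genes called.

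**Figure D5:**
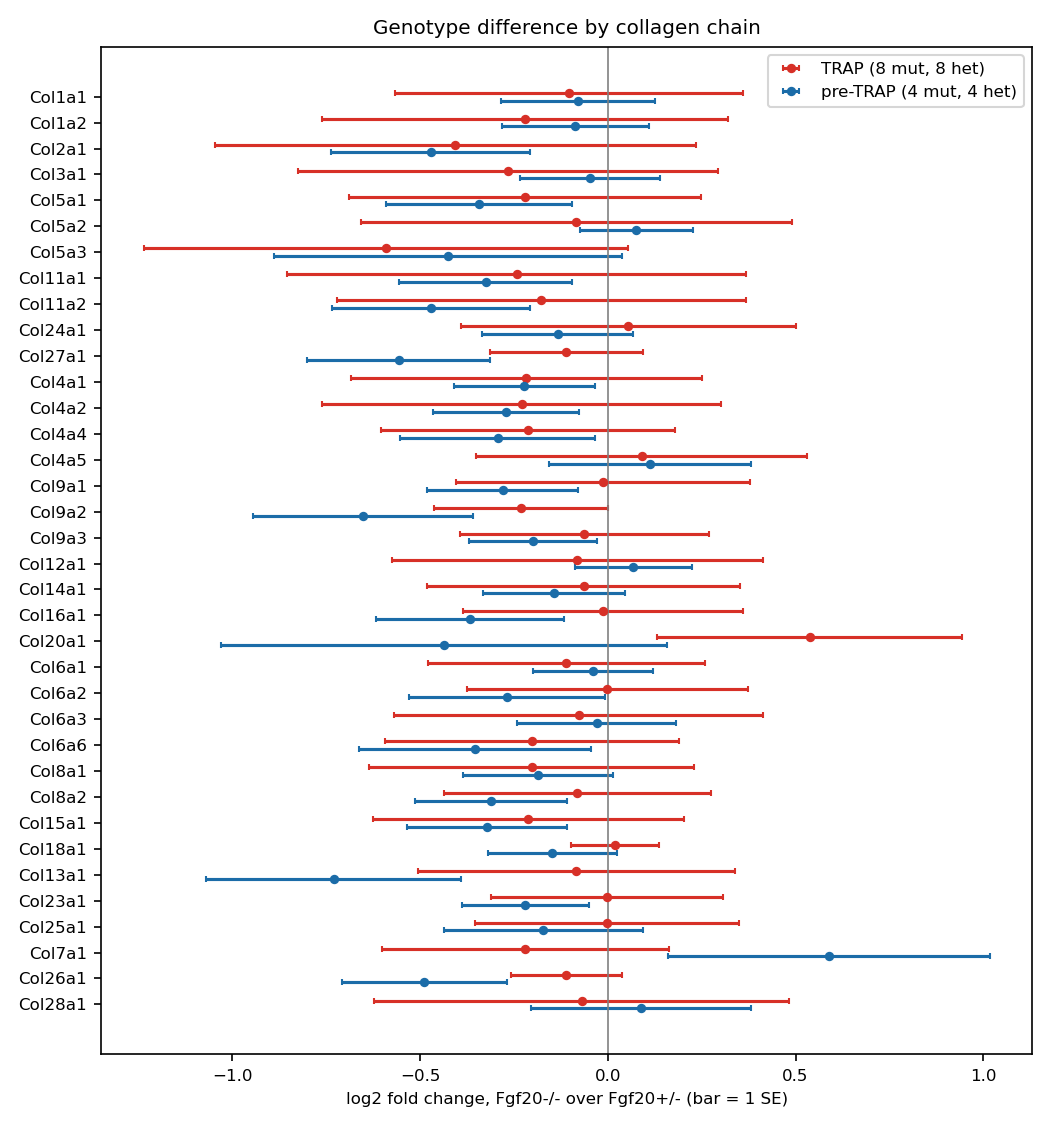
Log2 fold change of Fgf20-/- over Fgf20+/- (x axis) for the 36 collagen chains tested in both TRAP (red, 8 against 8 libraries) and pre-TRAP (blue, 4 against 4); bars are 1 SE. None was called, and the medians over the chains tested in each are -0.11 and -0.22.

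The 2 experiments were compared within each kind of library. In TRAP, Col6a6 and Col20a1 were called higher in experiment 2 and no chain lower, while edgeR called 14.1% of all genes higher, 8.81% lower and 23% either way. Both are chains of low level. Col6a6 ranged from 0.0517 to 0.467 CPM (median 0.13) in experiment 1 and from 0.337 to 1.31 CPM (median 0.885) in experiment 2, with 8 libraries each, and its log2 fold change was 1.97 ± 0.4 (edgeR adjusted p = 0.000982). Col20a1 ranged from 0.0261 to 0.332 CPM (median 0.123) and from 0.248 to 0.807 CPM (median 0.469), with 1.84 ± 0.414 (edgeR adjusted p = 0.00247). The ranges overlapped in both. Scaled by library totals alone, the median log2 fold change of all genes was 0.182 in place of 0.0175, and the calls went from 3051 higher and 1901 lower to 4475 higher and 735 lower, and the log2 fold changes were then 2.14 for Col6a6 and 2.02 for Col20a1.

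Col2a1 (-1.22 ± 0.648) was not called lower in experiment 2 with all TRAP libraries (edgeR adjusted p = 0.19). It was called without library 3 (-1.83, edgeR adjusted p = 0.0327), together with Col11a1 (-1.65), and without libraries 3 to 6 (-0.47, edgeR adjusted p = 0.0434). In pre-TRAP, Col8a1 was called higher in experiment 2 (9.74% of all genes higher, 4.97% lower, 14.7% either way). It was at 12.0, 7.81, 6.42 and 8.34 CPM in experiment 1 and at 16.6, 13.1, 12.8 and 12.9 CPM in experiment 2, without overlap (log2 fold change 0.69 ± 0.2, edgeR adjusted p = 0.0351). The call was lost on leaving out any of libraries 17, 18, 20, 21, 22 and 24. Under library totals the calls over all genes in pre-TRAP were 3556 higher and 343 lower, against 2139 and 1092, and the median of all genes was 0.251 in place of -0.00286.

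Whether the difference between TRAP and pre-TRAP itself varied between experiments was tested as an interaction, and no chain was called (of all genes 0.0371%, with 0.0289% higher and 0.00825% lower; 2 chains at an unadjusted edgeR p under 0.05, Col6a6 and Col28a1; 0 called by DESeq2). Col6a6 had log2 fold changes of TRAP over pre-TRAP of -2.09 in experiment 1 and -0.05 in experiment 2, and Col28a1 of -2.92 and -1.29. Taken alone, experiment 1 called 18 chains lower and experiment 2 called 28, none higher in either, from 8 TRAP and 4 pre-TRAP libraries each. Of all genes, experiment 1 called 5556 lower and 4465 higher of 21970 tested. Experiment 2 called 5167 lower and 5357 higher of 23201. Over the same experiments Col18a1 had -0.03 and 0.11, and Col23a1 -2.70 and -2.58.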

How the data were processed

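The authors deposited 1 table of raw counts, a whole number for each Ensembl gene in each of 24 libraries, without normalization. Per the labels' protocols, polyA RNA was made into libraries by a Clontech SMARTer kit. Per the submitters' processing notes, STAR, DESeq2 and the build GRCm38.p5 were used, and their versions, the annotation, counting tool and strand setting were not given in the sources used here. Ensembl identifiers gave a symbol to 53274 of 53946 genes, 44 of them chains.

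All genes were fitted together by edgeR 4.0.16 (under R 4.3.3). Libraries were scaled by TMM, genes of low count were removed by filterByExpr (minimum count 10, cells of group and experiment), and the quasi-likelihood F test included experiment, or genotype where experiments were compared, as a covariate. A call needed a p-value under 0.05 after Benjamini-Hochberg adjustment over every gene tested. Both scripts for the fits and the permutation test were tested on simulated data. DESeq2 1.42.0 served as an alternative. Partner ratios used a pseudocount of 0.5 on counts, and the planned list of pairs held Col4a1 with Col4a5, which share no helix, so the other pairs were also adjusted without it. That restriction, and shares and pathway genes without TRAP libraries 3 to 6, were added after seeing the data. The p-values set differences against the spread between libraries, each a pool of embryos. The labels do not say whether pools shared litters, or whether a TRAP and a pre-TRAP library came from the same pool. Lengths of transcripts were not used, so levels are compared between groups and not between genes.

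Values by library were given for chains called in a genotype, interaction or experiment comparison, for up to 8 falls in TRAP of chains whose mean reached 1 CPM and whose sign matched between experiments, for types I to III, IX and XI and type IV whatever their result, and for the largest called rise and fall of each pathway list with a mean of at least 2 CPM. The members, lists and rule were chosen with earlier results of these data known. A planned description of triple helix features in proteins was not run. Alternatives were other scalings, no filter, DESeq2, no covariate, each experiment or genotype alone, each library left out and TRAP libraries 3 to 6 left out.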

Additional observations from a re-analysis of the deposited data

Results flagged for a closer look

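In TRAP mut, library 6 was set apart from the other 7 libraries for most chains examined, the next highest being library 4 each time. Col2a1 was at 4042 CPM against 913.4 CPM, Col11a1 at 1124 against 251 CPM, Col11a2 at 186.1 against 65.4 CPM, Col9a1 at 373 against 146.7 CPM and Col9a3 at 167.4 against 93.6 CPM. Among connective tissue chains, Col1a1 was at 156.9 against 74.6 CPM, Col1a2 at 305.1 against 96.6 CPM, Col3a1 at 215.4 against 72.3 CPM, Col6a1 at 18.9 against 8.74 CPM and Col6a2 at 10.4 against 5.41 CPM. In the remaining families, Col4a1 was at 46.5 against 17.6 CPM, Col4a2 at 43.7 against 15.1 CPM, Col4a5 at 4.51 against 2.23 CPM, Col8a2 at 13.2 against 5.29 CPM, Col15a1 at 3.83 against 1.97 CPM and Col23a1 at 13.1 against 8.19 CPM. The collagen share of its counts was 0.726% against 0.221%. Cartilage markers summed to 1459 CPM in library 6 and 493.9 CPM in library 4, mesenchyme markers to 578.3 and 315 CPM, and endothelial markers to 16.4 and 12.8 CPM. The part of these markers in the collagen values was not tested.

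In TRAP het the gaps fell to different libraries. Library 5 stood above library 3 for Col2a1 (4049 against 1912 CPM) and Col11a2 (185.3 against 94.7 CPM). Library 3 stood above the next library for Col8a1 (9.82 against 3.39 CPM, library 5) and Col4a6 (0.421 against 0.179 CPM, library 9). Col7a1 was highest in library 1, at 1.73 CPM against 0.716 CPM in library 9. In pre-TRAP het, Col28a1 was at 1.93 CPM in library 21 against 0.959 CPM in library 17. In all, 23 of 108 combinations of a value and a group had such a gap by Dixon's criterion on untransformed values. With normally distributed values chance reaches it in about 1 of 20 groups, a rate that need not hold for these. Values of 1 library are also not independent of each other.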

How the results depend on the processing

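Counts of called chains moved as follows. For TRAP against pre-TRAP, 32 chains were called lower with all libraries, 18 in experiment 1 alone, 29 to 36 with 1 library left out, and none higher under any alternative. Experiment 2 against experiment 1 in TRAP had 0 chains lower, 1 with no filter and without libraries 3 to 6, and 0 to 2 with 1 library left out (2 without library 3), and 2 higher (2 to 3 with 1 left out, Col7a1 joining without library 11). In pre-TRAP, 1 chain was higher, 2 with library totals alone and 0 to 1 with 1 library left out, and 0 to 1 were lower (Col28a1 without library 19). Genotype and interaction counts stayed at 0 throughout. For partner ratios, 1 pair differed, 2 in experiment 1 alone and without libraries 3 to 6, 0 in experiment 2 alone and in mut libraries alone, 1 to 2 with 1 library left out (2 without library 11), and 0 among the 10 pairs that share a helix, a restriction chosen after seeing the data. Over the alternatives for single chains in TRAP against pre-TRAP, 1260 of 1355 values kept their direction and side of the threshold, 69 were no longer called, 21 became called and 5 changed sign without being called.

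Signs changed only for values that were not called. Col18a1 had -0.025 in experiment 1 alone, -0.062 in het libraries alone and -0.0237 to 0.13 with 1 library left out. Col20a1 had -0.61 in experiment 1 alone and -0.32 in het libraries alone. The genotype value of Col2a1 in TRAP was 0.017 in experiment 1 alone and -1.25 (without library 6) to 0.28 (without library 5) with 1 library left out. Among ratios, Col1a1 to Col1a2 went to -0.12 in experiment 1 alone, -0.070 in het alone and -0.023 to 0.060 with 1 library left out, Col5a1 to Col5a2 to -0.11 and -0.046, Col4a1 to Col4a2 to 0.026 in experiment 2 alone and 0.024 without libraries 3 to 6, Col6a1 to Col6a2 to -0.13 in mut alone and -0.031 to 0.12 with 1 left out, and Col8a1 to Col8a2 to 0.075 in experiment 1 alone. The cause was not tested. No paired analysis was possible because the replicate numbers in the labels are not shared between groups. Counting depth limits the chains under 1 CPM, where a library holds few reads.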

Other observations

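The collagen excess of TRAP libraries 3 to 6 was smaller or absent in some chains. Col27a1 was at 64.8, 55.3, 71.3 and 78.7 CPM in libraries 3, 4, 5 and 6 and at 24.0 to 67.8 CPM in the other 12, and Col9a2 at 61.8, 48.5, 106.6 and 96.9 CPM against 32.7 to 71.8 CPM, so that libraries 5 and 6 were highest and libraries 3 and 4 lay within the others' range. Col18a1 and Col26a1 stayed within the range of the others. Of the 40 tested chains, 27 had at least 3 of these libraries among their 4 highest, a count that was not made over all genes.

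Among the mesenchyme markers, Dcn, a small proteoglycan that binds collagen fibrils, was called higher in TRAP (log2 fold change 0.32 ± 0.114, edgeR adjusted p = 0.0164), and Lum, of the same family, was not called (0.20 ± 0.167, edgeR adjusted p = 0.322), whereas the median of the list was -2.14. Adamts2, the procollagen N-proteinase, was at 3.25 to 7.28 CPM in TRAP and 3.56 to 7.51 CPM in pre-TRAP and was not called (0.10 ± 0.14, edgeR adjusted p = 0.566).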
